A study of Homo sapiens with 4 samples.

Results

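MicroRNAs (miRNAs) pulled down with a positive RNA probe were compared with those pulled down with a negative RNA probe in HGC27, an established human gastric cancer line derived from a lymph node metastasis. The comparison rested on 2 of the 4 libraries of the study, 1 library for each probe. HGC27 cells of both libraries carried the 3′-UTR of FN1, the gene of the matrix protein fibronectin, stably overexpressed from a lentivirus and selected with puromycin, so no library came from unmodified cells. The probes were RNAs to the FN1 3′-UTR, transcribed in vitro, biotinylated, held on streptavidin beads and incubated with cell lysate. The methods call the RNA bound to the beads antisense, but they do not link that word to the positive or to the negative probe, so a ratio describes the probe and not a strand. The other 2 libraries were the same probes in AGS, another gastric cancer line with the same overexpression.

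Members were the mature miRNA names with at least 10 counts in 1 of the HGC27 libraries, which held for 366 of the 843 names in the table. Of these, 296 were known miRNAs and 70 had been predicted by the authors from the reads. Each count was taken as a share of its library, whose totals were 1452832 counts with the negative probe and 1296853 with the positive probe, and the share ratio was the positive share over the negative share. A miRNA was called higher at a ratio of at least 2 and lower at a ratio of at most 0.5. With 1 library a group there is no replicate check and no test, and the 95% intervals given with ratios (exact binomial) cover counting error only, since PCR reads without molecular identifiers are not independent molecules. Shares of a library sum to a fixed whole, so a larger share of some miRNAs means a smaller summed share of the others.

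A mature miRNA is a short RNA that guides Argonaute to target RNAs, mainly through its seed near the 5′ end, and miRNAs with the same seed are treated as a family because they can recognise the same sites. Each precursor hairpin can release a miRNA from its 5′ arm (5p) and from its 3′ arm (3p), and usually 1 of the arms accumulates. Hairpins that lie close together in the genome are often cut from the same primary transcript, so the arms and the clusters show whether miRNAs of a common origin moved together.

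The sequences below belong to the families and hairpins on which the results turn, and show what members of a family share and where the arms of a hairpin differ. They were taken from RefSeq (GRCh38.p14), which held a mature entry for 273 of the 296 known members, and capitals mark the seed (bases 2 to 8). The first 5 have the let-7 seed and were higher with the positive probe.
let-7i-5p: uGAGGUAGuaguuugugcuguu
let-7f-5p: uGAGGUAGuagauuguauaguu
let-7a-5p: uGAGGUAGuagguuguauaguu
let-7g-5p: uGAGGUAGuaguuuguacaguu
miR-98-5p: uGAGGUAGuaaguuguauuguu
The next 3 have the seed of the miR-17 family and were lower.
miR-17-5p: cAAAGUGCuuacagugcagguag
miR-20a-5p: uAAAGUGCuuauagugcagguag
miR-93-5p: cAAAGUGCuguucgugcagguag
The miR-103/107 pair and 2 members of the miR-99/100 family were lower as well.
miR-103a-3p: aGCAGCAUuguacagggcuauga
miR-107: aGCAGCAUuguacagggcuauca
miR-99b-5p: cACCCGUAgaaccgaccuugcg
miR-100-5p: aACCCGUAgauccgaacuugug
The most abundant miRNA of both libraries and 2 relatives with its seed follow.
miR-148a-3p: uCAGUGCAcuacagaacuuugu
miR-148b-3p: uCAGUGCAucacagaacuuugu
miR-152-3p: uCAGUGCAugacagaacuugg
The last 5 are both arms of miR-423 and of miR-199a, and the miRNA with the lowest ratio.
miR-423-5p: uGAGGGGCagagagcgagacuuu
miR-423-3p: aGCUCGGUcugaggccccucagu
miR-199a-5p: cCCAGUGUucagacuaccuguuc
miR-199a-3p: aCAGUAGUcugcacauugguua
miR-424-3p: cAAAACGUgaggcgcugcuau

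With the positive probe, 111 members were higher, 119 were lower and 136 lay between the thresholds. As a background for every count of members below, 30.3% of the 366 members were called higher and 32.5% lower. The higher miRNAs held 12.1% of the counts with the negative probe and 48.8% with the positive probe, while the lower ones went from 24.5% to 5.13%. Some names share a mature sequence, and with each sequence counted once there were 110 higher and 114 lower, the lower ones going from 23.9% to 5.13%. Counting error left the sign of most calls in place: the interval excluded a ratio of 1 for 106 of the higher and 109 of the lower miRNAs, and lay wholly past the threshold for 69 and 72 of them. Many calls rested on few reads, as 72 of the higher and 68 of the lower miRNAs had under 100 counts in both libraries. Among the 71 members with at least 1000 counts in a library, 23 were higher and 18 were lower. Near the count minimum, the 15 names whose highest count was 9 and which were therefore left out had a median log2 ratio of 0.75, against 0.16 for the 16 names whose highest count was 10.

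**Figure D1:**
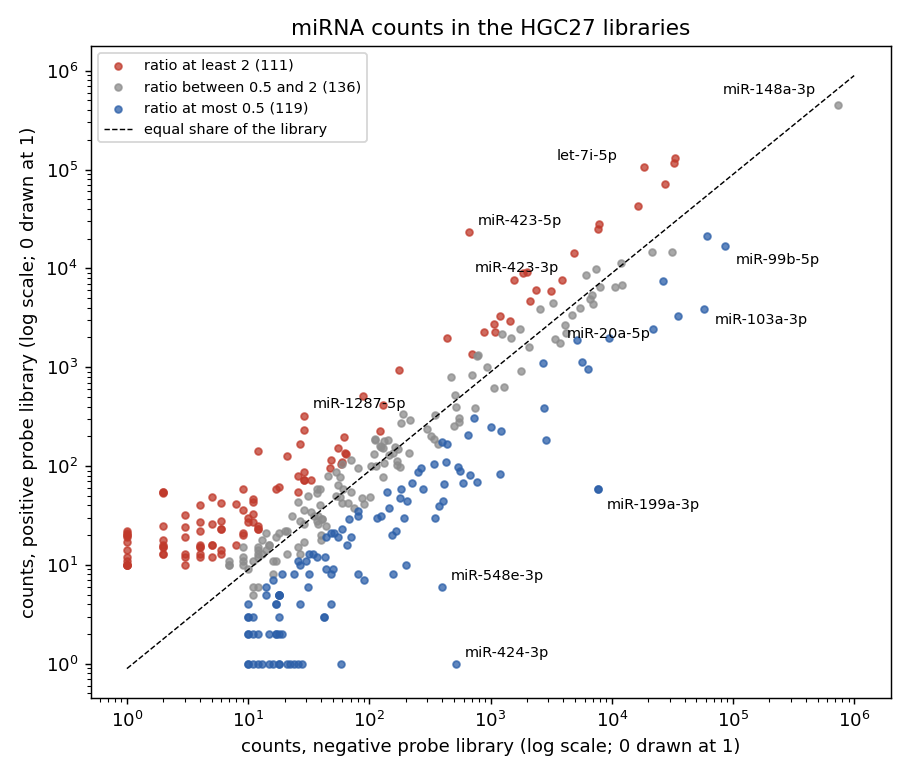
Counts of the 366 miRNAs in the negative probe library (x axis) and the positive probe library (y axis) of HGC27, both on a log scale with 0 drawn at 1; the dashed line marks equal shares. Red points (111) have a share ratio of at least 2 and blue points (119) a ratio of at most 0.5; miR-423-5p stands farthest above the line, and miR-424-3p, miR-199a-3p and miR-548e-3p farthest below it.

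The scale of the shares set how the calls split. Leaving let-7 out of both totals moved the split to 150 higher and 87 lower, and leaving miR-148a-3p out moved it to 89 higher and 148 lower. The median log2 ratio of the members was −0.01 on shares of the whole library, 0.52 without let-7 and −0.41 without miR-148a-3p. Ratios between miRNAs of the same libraries do not depend on this choice.

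The markers named for this comparison covered the range of ratios. miR-148a-3p, which represses the DNA methyltransferase gene DNMT1, was the most abundant miRNA of both libraries, with 734628 counts (50.6% of the total) with the negative probe and 453909 (35.0%) with the positive probe. Its ratio of 0.692 (95% interval 0.690 to 0.695) lay between the thresholds, and its log2 value went from −0.53 to 0.01 once let-7 was left out of the totals. miR-103a-3p, known for repressing the miRNA-processing enzyme gene DICER1, went from 57783 to 3863 counts, 13.4-fold lower in share (95% interval 12.9 to 13.8). miR-199a-3p, typical of mesenchymal cells, went from 7692 to 58 counts, 118-fold lower (91.5 to 156). miR-423-5p went the other way, from 660 to 23084 counts, with a ratio of 39.2 (36.3 to 42.4), the highest of all members.

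The most abundant miRNAs changed in make-up rather than in rank at the top. With the negative probe, miR-148a-3p was followed by miR-99b-5p (5.87% of the library), miR-100-5p (4.20%), miR-103a-3p (3.98%) and miR-20a-5p (2.44%). With the positive probe it was followed by let-7f-5p (10.1%), let-7a-5p (9.02%), let-7i-5p (8.21%) and let-7g-5p (5.55%). Let-7 thus took the places behind miR-148a-3p that the miR-99/100, miR-103 and miR-17 families had held. Other miRNAs of this upper group were miR-24-3p and miR-22-3p, both higher, and miR-7-5p, which represses EGFR. miR-24-3p had 16615 counts with the negative and 42925 with the positive probe, a ratio of 2.89 (2.84 to 2.95), and miR-22-3p had 7770 and 24768, a ratio of 3.57 (3.48 to 3.66). miR-7-5p had 31405 and 14659 counts, a ratio of 0.523 (0.513 to 0.533), just short of the threshold.

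Among known miRNAs with at least 100 counts, several of the 10 highest ratios belonged to miRNAs of low abundance. These 10 also held miR-423-5p and 2 let-7 members described below, the abundant let-7i-5p (ratio 6.50) and let-7e-5p (5.44). miR-1292-5p had 12 counts with the negative and 143 with the positive probe (ratio 13.4, 7.41 to 26.4). miR-1287-5p had 29 and 324 counts (ratio 12.5, 8.55 to 19.0). Their intervals were wide, but both lay above the highest ratio of the let-7 family. miR-6747-3p (27 and 166 counts), miR-219a-1-3p (21 and 125), miR-296-3p (89 and 510) and miR-378a-5p (176 and 934) had ratios between 5.95 and 6.89. miR-1180-3p, whose mature sequence holds no adenine, went from 1556 to 7575 counts, a ratio of 5.45 (5.16 to 5.76).

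At the other end, miR-424-3p was listed with 520 counts in the negative probe library and was blank in the positive. Set against a floor of 3 counts in the positive probe library, its share was at least 155-fold lower. miR-199a-3p and miR-199b-3p have the same mature sequence and carry the same counts, so they stand for 1 measurement. miR-548e-3p, of a primate family that arose from transposable elements, had 396 and 6 counts, 58.9-fold lower (26.8 to 162). miR-19a-3p (157 and 8 counts), miR-28-3p (2882 and 182), miR-140-3p (1207 and 84) and miR-330-3p (350 and 30) were between 10.4- and 17.5-fold lower. miR-1246, a short RNA known to be similar to a fragment of the U2 spliceosomal RNA, had 771 and 69 counts, 9.97-fold lower (7.79 to 13.0).

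The marker lists bore on which cells the material came from. Red blood cell markers had 4 counts with the negative and 3 with the positive probe, with miR-451a at 0, and the 5 leukocyte markers were all at 0. Of 10 epithelial miRNAs, 8 were members (2 higher and 2 lower), miR-141-3p and miR-215-5p were at 0 in both libraries, and the summed share was 0.185% with the negative and 0.106% with the positive probe. The same list summed to 2.54% and 0.293% in AGS, so its share of the pulled-down counts was lower in HGC27 with both probes. These are shares of pull-down material and not levels in the cells. Of 8 mesenchymal miRNAs, 7 were members, and with the shared sequence of miR-199a-3p and miR-199b-3p counted once these were 6 sequences (2 higher and 3 lower). Their list then summed to 0.728% and 0.788% in HGC27, a near even level, and to 0.00284% and 0.0110% in AGS. miR-143-3p, a miRNA of smooth muscle and fibroblasts, was higher within that list, with 1999 and 9123 counts (ratio 5.11, 4.87 to 5.37), while miR-199a-3p was lower. Muscle miRNAs (1 of 3 a member) went from 0.0234% to 0.00848%, the liver miRNA miR-122-5p had 38 and 31 counts, and the neuronal miR-9-5p had 2111 and 4669. The part of other cell types in the results was not tested.

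Grouped by seed, 118 members fell into 44 families of at least 2 distinct sequences. On summed counts 10 families were higher, 12 were lower and 22 lay between. No family held both a higher and a lower member, and every member was higher in 7 families and lower in 8. Some of these joined a miRNA to a predicted entry that overlaps it, such as miR-629-5p with chr15_7523 and miR-450a-5p with chrX_36459. Others rested on few reads, such as miR-30c-1-3p with miR-30c-2-3p (5 and 26 counts). With known miRNAs alone, 4 families were higher and 12 lower. Reads of near-identical family members can be assigned to each other, and the part of such reads in this was not tested.

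Let-7, known for repressing RAS genes, HMGA2 and LIN28B, was higher as a whole family. Its 9 members summed to 128858 counts with the negative probe and 483204 with the positive probe, which was 8.87% and 37.3% of the libraries (ratio 4.20, 4.18 to 4.23). All 9 were higher. Their log2 ratios stayed positive under each scaling tried, as those of all higher miRNAs had to, since the shifts were smaller than the threshold. Without miR-148a-3p in the totals, let-7d-5p was short of the threshold (log2 ratio 0.79). The members were not equal in size of change. let-7i-5p had 18337 and 106451 counts and the family's highest ratio, 6.50 (6.40 to 6.61). let-7e-5p followed with 1841 and 8948 counts (ratio 5.44, 5.18 to 5.73) and miR-98-5p with 435 and 1989 (5.12, 4.62 to 5.70). let-7f-5p (33560 and 131386), let-7c-5p (7842 and 28194) and let-7a-5p (32858 and 116918) lay close together, at 4.39, 4.03 and 3.99. let-7b-5p (4920 and 14382 counts, ratio 3.27), let-7g-5p (27616 and 71998, ratio 2.92) and let-7d-5p (1449 and 2938, ratio 2.27) had the lowest ratios. The intervals of neighbours in this order overlapped for let-7e-5p with miR-98-5p and for let-7c-5p with let-7a-5p, and were apart for the others.

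The miR-17 family, which represses cell cycle inhibitor genes such as CDKN1A, was lower throughout. Its 6 members summed to 48140 and 5415 counts (3.31% and 0.418% of the libraries), 7.94-fold lower. miR-20a-5p made up most of it, with 35380 and 3272 counts, 9.65-fold lower (9.31 to 10.0). miR-17-5p had 6420 and 954 counts, miR-93-5p 5695 and 1117, and miR-106b-5p 592 and 68. miR-106a-5p (26 and 0 counts) and miR-20b-5p (27 and 4) rested on few reads. Their ratios ranged from 0.104 for miR-20a-5p to 0.220 for miR-93-5p, so the 6 members stayed within 2.12 times of each other.

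The remaining large families were lower or near even. miR-99/100, whose known targets include MTOR, had 172768 and 45851 counts (11.9% and 3.54%, ratio 0.297, 0.294 to 0.300), with all 3 members lower, although without let-7 in the totals miR-100-5p was short of the threshold (log2 ratio −0.81). miR-103/107 went from 4.02% to 0.305%, with miR-107 at 562 and 90 counts, 5.57-fold lower (4.46 to 7.04). In the miR-320 family, miR-320a-3p had 21720 and 2429 counts, 7.98-fold lower (7.65 to 8.33), and 2 sparse members (miR-320b and a predicted entry) were lower too. The miR-148/152 family as a whole had a ratio of 0.690, which followed its dominant member, while its smaller members were below the threshold: miR-148b-3p had 5162 and 1882 counts, 2.45-fold lower (2.32 to 2.58), which also missed the threshold without let-7 in the totals (log2 ratio −0.75). miR-152-3p had 402 and 44 counts, 8.16-fold lower (5.96 to 11.4), so these 3 related sequences were spread over 5.65 times.

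Other families were near even or spread more widely. miR-125, which shares clusters with let-7 and miR-99/100, had 18880 and 16669 counts (ratio 0.989, 0.969 to 1.01), and the sign of miR-125a-5p and miR-125b-5p changed with the scaling. miR-25/92 had 16072 and 16049 counts (ratio 1.12, 1.09 to 1.14), with miR-25-3p and miR-363-3p higher and miR-92a-3p, miR-92b-3p and miR-32-5p between the thresholds. miR-15/16, known for repressing BCL2, spread over 8.49 times, from miR-424-5p (48 and 4 counts) to a predicted entry with the same seed (41 and 29). The miR-200b/c and miR-429 family, which represses the ZEB transcription factors, had miR-200c-3p at 1793 and 916 counts (ratio 0.572, 0.528 to 0.620) and miR-200b-3p at 67 and 42. Its remaining member, miR-429, was called higher on 6 and 13 counts, with an interval (0.861 to 7.79) that included 1. miR-548e-3p and miR-548bc (81 and 8 counts) were both lower and lay 6.52 times apart, and miR-135a-2-3p (90 and 7) and miR-135b-3p (27 and 13) lay 6.19 times apart.

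**Figure D2:**
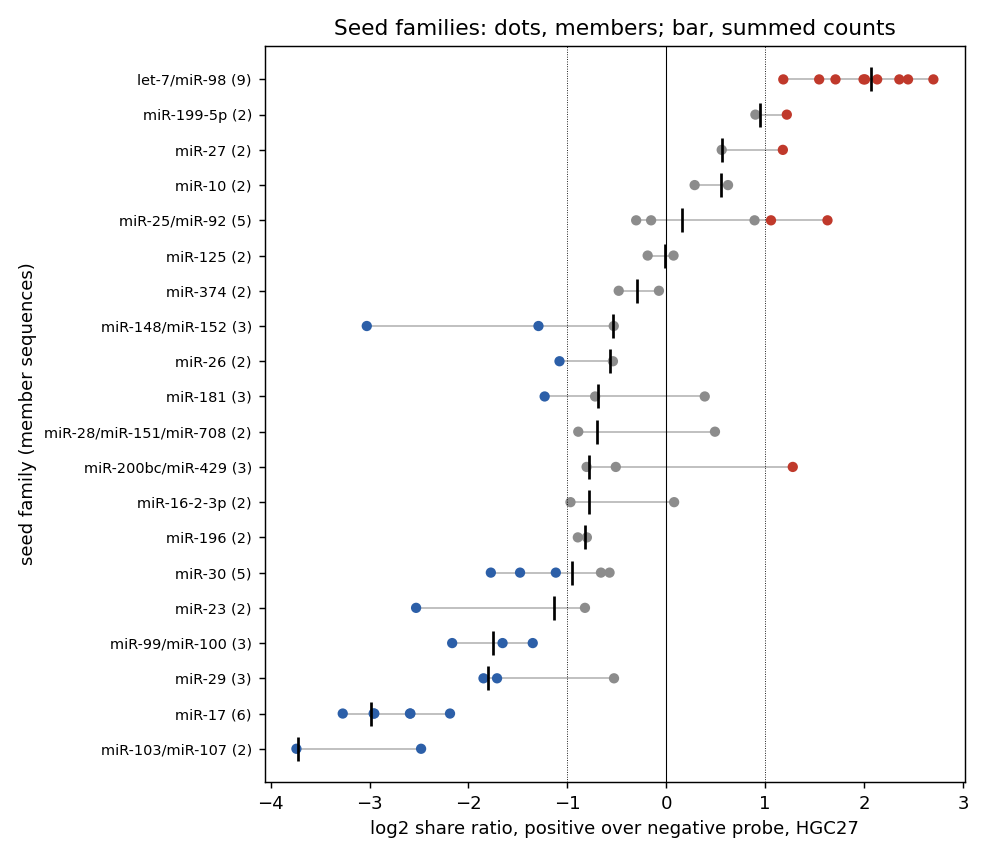
Log2 share ratio in HGC27 (x axis) of the members of the 20 seed families with the most counts among those made of known miRNAs alone (y axis, with the number of member sequences); dots are members coloured red if higher, grey if between and blue if lower, black bars are the family's summed counts, and dotted lines mark ratios of 0.5 and 2. No row holds both red and blue dots; all 9 let-7 dots are red and all 6 miR-17 dots are blue.

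The arms of hairpins were less uniform in direction than the members of a seed family. Both arms were members for 50 known hairpins, and their ratios lay at least 2 times apart in 31 of them, with the 5p arm relatively higher in 18 and the 3p arm in 13. A comparison of arms within a library does not depend on the library total. In 9 hairpins the arms were called in opposite directions, in 6 both were higher and in 6 both were lower. The arm with more counts was not the same in the 2 libraries for 14 hairpins. Over all known members, 37 of 136 5p miRNAs were higher and 36 were lower, and 38 of 132 3p miRNAs were higher and 51 were lower.

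miR-199 showed the widest gaps. miR-199a-3p and miR-199b-3p share the sequence that went from 7692 to 58 counts. Their 5p arms had higher shares with the positive probe: miR-199a-5p had 472 and 787 counts (ratio 1.87, 1.66 to 2.10) and miR-199b-5p had 64 and 133 (ratio 2.33, 1.72 to 3.19). The arms thus lay 221 times apart for miR-199a and 276 times apart for miR-199b. The 5p share of the miR-199a counts went from 5.78% to 93.1%, so the arm that led changed from 3p to 5p. miR-214, encoded near a miR-199a hairpin, was lower on both arms, with 269 and 95 counts for miR-214-5p and 71 and 19 for miR-214-3p.

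miR-423 also changed its leading arm, on a large gain of its 5p counts. Its 3p arm had 6183 and 8538 counts (ratio 1.55, 1.50 to 1.60), and the 5p share of the hairpin went from 9.64% to 73.0%. In AGS the 5p share of miR-423 went from 19.6% to 99.4%. miR-28 and miR-140 moved in the same direction. miR-28-5p had 125 and 157 counts against 2882 and 182 for miR-28-3p, and the 5p share went from 4.16% to 46.3%. miR-140-5p had 132 and 178 counts against 1207 and 84 for miR-140-3p, and its share went from 9.86% to 67.9%.

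Apart from miR-423, the hairpins with the most counts were read mainly from the same arm with both probes. miR-99b-5p went from 85332 to 16992 counts, 4.48-fold lower (4.41 to 4.56), while miR-99b-3p went from 878 to 2279, a ratio of 2.91 (2.69 to 3.15), and the 3p share of the hairpin went from 1.02% to 11.8%. miR-378a-3p had 21557 and 14653 counts (ratio 0.761) against 176 and 934 for miR-378a-5p. miR-148a-5p had 703 and 843 counts (ratio 1.34, 1.21 to 1.49), 1.94 times the ratio of its abundant 3p arm. Both arms of let-7c had ratios above 1, with let-7c-3p at only 12 and 15 counts. miR-92b-5p (2 and 53 counts, ratio 29.7, 7.82 to 252), both arms of miR-365a (0 and 21 counts for 5p, 42 and 3 for 3p) and both arms of miR-425 (50 and 9 for 5p, 4 and 22 for 3p) were far apart on few reads.

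**Figure D3:**
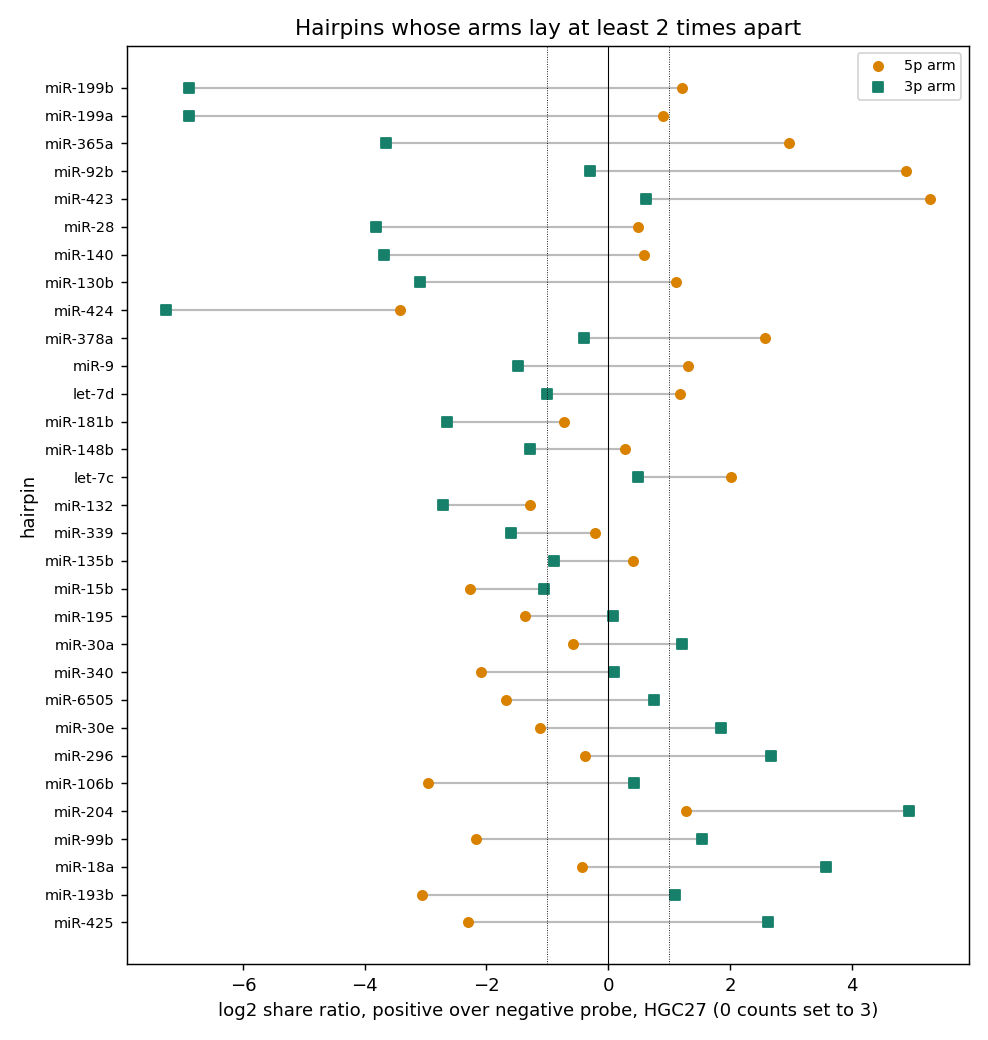
Log2 share ratio in HGC27 (x axis; 0 counts set to 3) of the 5p arm (orange circles) and the 3p arm (green squares) of the 31 hairpins (y axis) whose arms lay at least 2 times apart; dotted lines mark ratios of 0.5 and 2. The 18 hairpins with a relatively higher 5p arm are at the top, led by miR-199b and miR-199a, and the 13 with a relatively higher 3p arm at the bottom.

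Genomic neighbours often differed in direction. Precursors within 10 kb on 1 strand of GRCh38.p14, together with 5 members that had no RefSeq placement and were added from lists of known clusters, formed 38 clusters with at least 2 members. In 14 clusters at least 1 member was higher and another lower, in 6 there was a higher but no lower member, in 10 a lower but no higher member, and in 8 neither. All members were higher in 2 clusters and lower in 1, that of miR-30b-5p and miR-30d-5p, which rests on such a list. The 2 higher clusters held only members with the let-7 seed (let-7a-5p with let-7b-5p, and let-7f-5p with miR-98-5p). In each of them 1 name also has a precursor in another cluster. With RefSeq placements alone, a choice made after these values had been seen, 13 of 36 clusters were mixed and none was lower throughout. The cluster of MIR425 and MIR191 was then no longer mixed, since miR-425-5p joins it through a list. Of the 14 mixed clusters, 12 were mixed between different hairpins, and 10 still were when names with precursors in several clusters were left out. Among pairs of known sequences past the threshold that came from different hairpins of a cluster and had different seeds, 20 of 49 (40.8%) had the same direction, against 50.0% of all 16110 pairs among the 180 such sequences. These pairs share members and were counted after the values had been seen, so they describe the clusters and carry no test.

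The clusters that join let-7 to miR-99/100 and miR-125 were split in the same way by seed. At chr19:51692612-51693339, miR-99b-5p was lower (ratio 0.223), let-7e-5p was higher (5.44) and miR-125a-5p was even (1.05). At chr21:16539089-16539911, miR-99a-5p had 26405 and 7485 counts (ratio 0.318, 0.310 to 0.326) beside let-7c-5p with a ratio of 4.03. At chr11:122146522-122152308, miR-100-5p had 61031 and 21374 counts (ratio 0.392, 0.386 to 0.398) beside let-7a-5p with a ratio of 3.99, although let-7a-5p is also made from 2 other precursors. In each of the 3 clusters the miR-99/100 member was lower and the let-7 member higher. The cluster of let-7a-1, let-7f-1 and let-7d (chr9:94175957-94178920) was mixed only through let-7d-3p, with 400 and 177 counts (ratio 0.496, 0.413 to 0.593).

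The clusters of the miR-17 relatives were split as well. In the cluster from MIR17 to MIR92A1 (chr13:91350605-91351391), miR-17-5p, miR-20a-5p, miR-19a-3p and miR-19b-3p (155 and 20 counts) were lower. miR-92a-3p, with 8059 and 6470 counts (ratio 0.899, 0.870 to 0.929), and miR-18a-5p, with 170 and 113, lay between the thresholds, and miR-18a-3p was higher on 3 and 32 counts (ratio 11.9, 3.74 to 61.0). In the cluster of MIR25, MIR93 and MIR106B (chr7:100093560-100094074), miR-106b-5p and miR-93-5p were lower and miR-25-3p, with 3139 and 5839 counts (ratio 2.08, 1.99 to 2.18), was higher. miR-25-3p was short of the threshold with DESeq2 library sizes and on the deposited normalized values (log2 ratio 0.97 for each). It was also short without miR-148a-3p in the totals (0.66). miR-25-5p was higher too, on 6 and 14 counts. In the cluster from MIR363 to MIR106A on chromosome X, miR-106a-5p and miR-20b-5p were lower and miR-363-3p, with 55 and 152 counts, was higher (ratio 3.10, 2.26 to 4.29). In all 3 clusters, the members with the miR-17 seed were lower and no member with the miR-25/92 seed was.

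The cluster of MIR24-2, MIR27A and MIR23A (chr19:13836287-13836659) held miR-23a-3p at 194 and 30 counts, 5.77-fold lower (3.92 to 8.79), beside miR-24-3p with a ratio of 2.89 and miR-27a-3p (47 and 95 counts) with 2.26. Its paralogous cluster on chromosome 9 shares miR-24-3p, and there miR-23b-3p (499 and 252 counts, ratio 0.566) and miR-27b-3p (7443 and 9801, ratio 1.48) lay between the thresholds on either side of 1. In the cluster of MIR424, MIR503, MIR542 and MIR450 (chrX:134540185-134546711), 4 members were lower, among them miR-424-3p and miR-542-3p (167 and 22 counts), and miR-450a-5p was called higher on 5 and 12 counts with an interval (0.882 to 9.74) that included 1. In the cluster of MIR193B and MIR365A, 2 members were higher and 2 lower, all on under 50 counts.

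**Figure D4:**
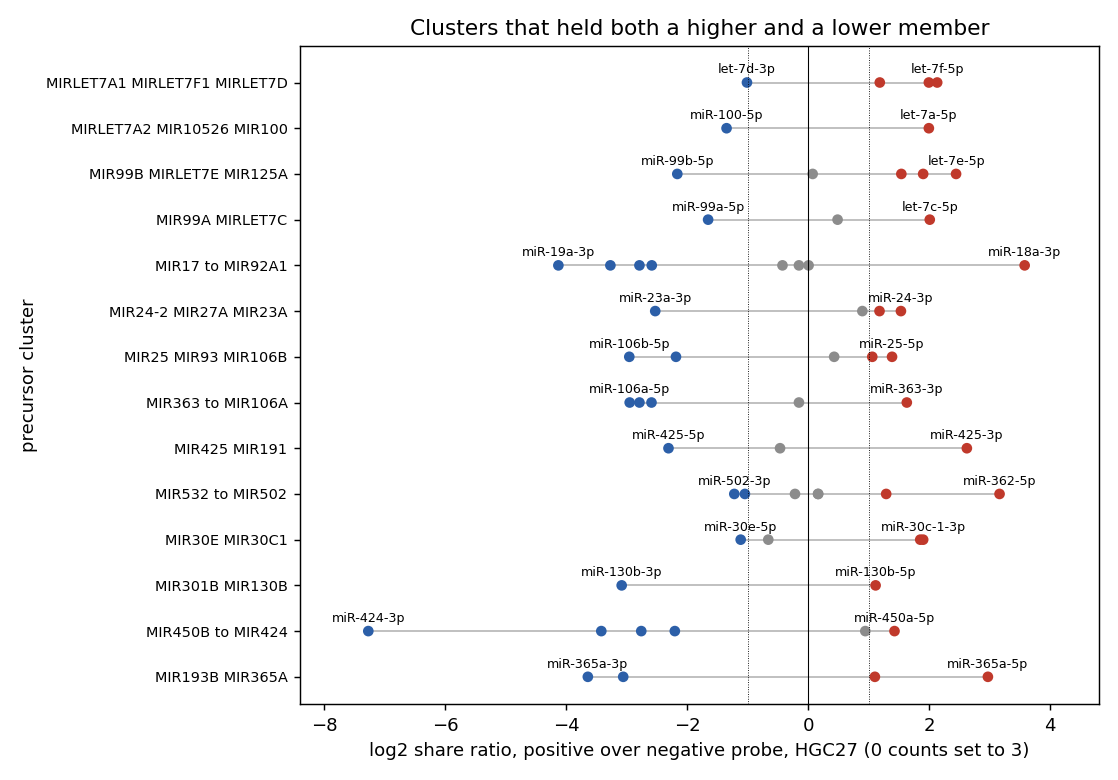
Log2 share ratio in HGC27 (x axis; 0 counts set to 3) of the members of the 14 precursor clusters (y axis) that held both a higher (red) and a lower (blue) miRNA; grey dots lie between the thresholds and the highest and lowest members are named. The let-7 members lie on the right and the miR-99/100 members on the left of the clusters they share.

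Base composition was compared after these values had been seen, as a feature that the choice of members did not use. Across 294 known sequences, the log2 ratio was lower where adenine made up more of the miRNA (Spearman's rho −0.49, Pearson's r −0.45). Over the 285 sequences without the let-7 seed rho was −0.50, over the 143 with at least 100 counts it was −0.47, and in AGS it was −0.50 over 172. Adenine was picked for description because its rho was the largest in size among GC content, the 4 bases and length. Over all known sequences and over those with at least 100 counts, rho was 0.27 and 0.14 for GC content. It was 0.16 and 0.33 for uracil and 0.22 and 0.20 for guanine. For cytosine it was 0.07 and −0.01, and for length 0.05 and −0.01. The points share the same 2 libraries and related sequences share composition, so these values describe the tables and carry no test. Of the 121 sequences with under 20% adenine, 55 were higher and 16 lower. Of the 90 with 20% to under 30%, 22 were higher and 27 lower, and of the 83 with 30% or more, 6 were higher and 54 lower. Within hairpins, the arm with less adenine had the higher ratio in 31 of the 48 whose arms differed in adenine, and in 22 of 29 where the arms also lay at least 2 times apart. miR-423 was an exception, since its 5p arm holds 26.1% adenine against 13.0% in its 3p arm.

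**Figure D5:**
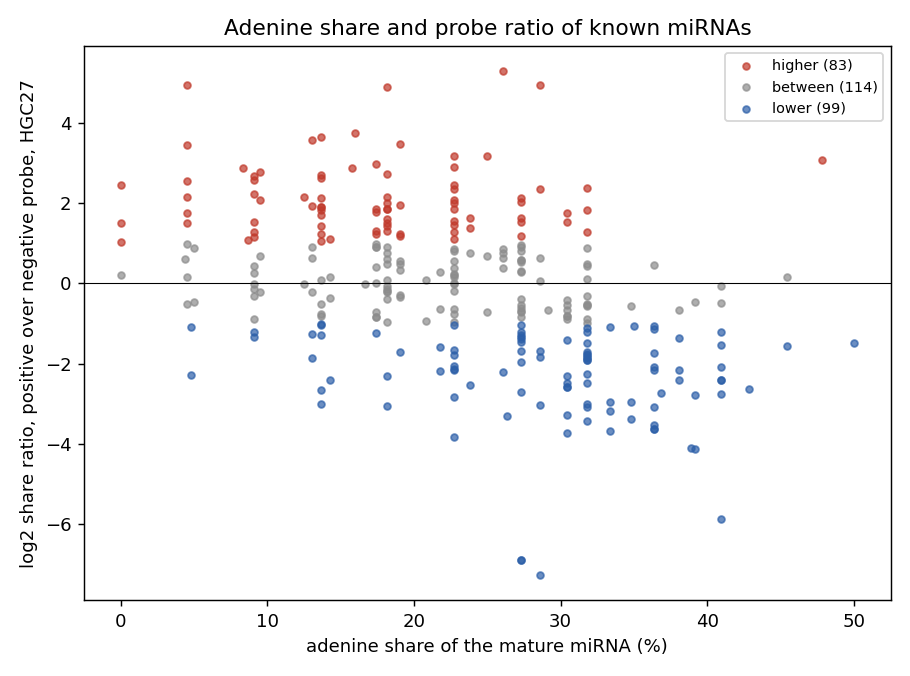
Share of adenine in the mature sequence (x axis, percent) and log2 share ratio in HGC27 (y axis) of the 296 known members; points are miRNAs, red if higher (83), grey if between (114) and blue if lower (99). Most red points lie left of 30% adenine, and 54 of the 83 sequences with 30% or more were lower.

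Perfect matches of the seed to the FN1 3′-UTR were counted for higher, between and lower miRNAs. The reverse complement of bases 2 to 8 of each known member was searched in the 1101 bases of the 3′-UTR of 1 annotated FN1 transcript (GENCODE 29), on the sense strand and on its complement. On the sense strand a match was found for 8 of 71 distinct seeds of higher miRNAs (11.3%), 6 of 101 of those between (5.94%) and 9 of 77 of lower miRNAs (11.7%). On the complement the numbers were 6, 5 and 6. Few seeds had a match in any group, so these counts cannot tell the groups apart, and pairing with the 3′-UTR was not tested. The let-7 seed had no match on either strand of this window, nor had the seeds of miR-17-5p, miR-103a-3p and miR-423-5p, while that of miR-199a-3p had 1 on the sense strand. A match is a description of letters, and the overexpressed insert itself was not examined. Only perfect matches to bases 2 to 8 were counted, so a missing match does not mean a missing site. By another prediction method, the paper placed sites for let-7i-5p and miR-423-5p, among others, on the FN1 3′-UTR. It also reported that their mimics lowered the activity of a luciferase reporter with this 3′-UTR, while mutated mimics did not.

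Predicted miRNAs made up 70 members, of which 28 were higher, 22 between and 20 lower. They are named here by the chromosome and number given in the deposited table. At least 16 bases were shared with a known name in 16 of them, and the part of shared reads in their ratios was not tested. The most abundant was chr2_21284, with 3899 and 7687 counts (ratio 2.21, 2.12 to 2.30), which overlaps miR-10b-5p (3262 and 4490 counts, ratio 1.54). The entry chr17_11015 (1746 and 2419 counts, ratio 1.55) overlaps miR-10a-5p, and chr7_31469 (3733 and 1751, ratio 0.525) overlaps miR-182-5p (3431 and 1923, ratio 0.628). Each of these predicted entries had a ratio on the same side of 1 as the known miRNA it overlaps. The entries chr19_13494 (1237 and 2176 counts, ratio 1.97) and chr3_23771 (2699 and 1102, ratio 0.457) shared no such stretch with a known name.

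In AGS, 193 of the 366 members also reached 10 counts, and of the 230 miRNAs that did so there 47% were higher and 29.1% lower by the same rule. Of the 49 members higher in HGC27 that also reached 10 counts in AGS, 46 were also higher in AGS (of 108 higher there), 2 lay between and 1 was lower. Of the 57 lower in HGC27 that did so, 41 were also lower in AGS (of 67 lower there), 9 lay between and 7 were higher. The sizes on library shares differed: the let-7 family had a ratio of 34.0 in AGS (33.6 to 34.3) against 4.20 in HGC27, and miR-423-5p had 470 (416 to 533) against 39.2. miR-103a-3p had 0.127 in AGS against 0.0749. The miR-125 family, even in HGC27, had a ratio of 11.5 in AGS. In AGS the miR-372/373 family went from 80.8% of the library with the negative probe to 37.5% with the positive, so the summed share of the other miRNAs was larger with the positive probe. Shares cannot tell a fall of this family from a rise of others. AGS ratios and calls without that family in the totals were not computed, so sizes in the 2 lines are not on a common scale. With 1 library per probe and line, the difference between the lines was not tested.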

How the data were processed

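RNA pull-down material from HGC27 cells was sequenced as small RNA, with 1 library for each probe. The authors deposited raw counts of tags mapped to mature miRNAs, listing a mature miRNA again for every further precursor, and a normalized score in whole numbers (tags per 1000000). The submitters' processing notes name cutadapt 1.9.3, Novoalign 3.02.12 and hg38 without their roles. The miRNA database release is not given in the sources used here. The deposited table held no columns of fold changes or p-values, and 0 columns of other samples.

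The 901 rows were collapsed to 843 names. The lowest count listed was 2, and a blank was read as 0. Ratios are shares of the library total with the positive over the negative probe. A 0 was set to a floor of 3 counts, and its ratio is a bound set by that floor that leaves out counting error. Depth was 1452832 counts with 574 names listed (negative probe) and 1296853 counts with 609 (positive probe). The share ratio, its exact Clopper-Pearson interval and the calls were computed in Python 3.11.15 with SciPy 1.17.1 and pandas 2.3.3, and were tested on simulated data. edgeR 4.0.16 (TMM) and DESeq2 1.42.0 (R 4.3.3) served only to give alternative library sizes, since 1 library a group allows no test. Seeds came from the deposited sequences. Coordinates and printed sequences came from RefSeq (GRCh38.p14), as did clusters, apart from 5 members placed by lists.

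Named miRNAs were the 4 markers, the 10 with the highest share in each library, the 10 highest and 10 lowest ratios among known miRNAs with at least 100 counts, members of the 8 families and 8 clusters with the most counts and the 5 with the widest spread, the 5 hairpins with the widest arm gap and the 5 with the most counts, and the 5 most abundant predicted entries. Other names, such as miR-143-3p, miR-107 and miR-9-5p, come from the marker lists or families, or were chosen after their values were seen. The members and lists were chosen with earlier results of these data known.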

Additional observations from a re-analysis of the deposited data

Results flagged for a closer look

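In 5 named miRNAs the ratio was past the threshold in both lines and in opposite directions. These differences between the lines were not tested, as each rests on 1 library for each probe and line. They also depend on the scale in AGS, where the miR-372/373 family held 80.8% of the negative and 37.5% of the positive probe library. The summed share of the other miRNAs was thus larger with the positive probe, and shares cannot tell a fall of this family from a rise of others. AGS ratios without that family in the totals were not computed. miR-100-5p had a ratio of 0.392 in HGC27, on 61031 and 21374 counts with the negative and positive probe, and of 2.31 in AGS (95% interval 2.13 to 2.50), on 1153 and 1374 counts. The other members of its family, miR-99a-5p and miR-99b-5p, had ratios of 1.66 (0.984 to 2.78) and 0.191 (0.187 to 0.194) in AGS. On library shares the family thus moved as a whole in HGC27, while its members lay on both sides of 1 in AGS. The shared sequence of miR-199a-3p and miR-199b-3p had a ratio of 0.00845 in HGC27 and of 2.64 in AGS (1.13 to 6.35), where it had only 11 and 15 counts. miR-429 had a ratio of 2.43 in HGC27 on 6 and 13 counts and of 0.292 in AGS (0.250 to 0.341) on 1264 and 191 counts. The predicted entry chr3_23771 had a ratio of 0.457 in HGC27 and of 2.32 in AGS (1.92 to 2.80), on 211 and 253 counts.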

How the results depend on the processing

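No paired analysis was possible because the 2 probes share a single replicate number, and with 1 library for each probe none could be left out. Against 111 miRNAs higher and 119 lower, requiring 100 counts gave 39 and 51, and a ratio threshold of 4 gave 56 and 61. Against 10 seed families higher and 12 lower, the numbers were 6 and 19 with miR-148a-3p left out of the totals, 3 and 6 at 100 counts, 22 and 21 with no minimum, and 5 and 7 at a threshold of 4. Families called higher numbered 16 with let-7 left out of the totals and 4 among known miRNAs alone. The 31 hairpins with arms apart became 12 at 100 counts and 60 with no minimum. The 14 mixed clusters became 7 at 100 counts and 4 at a threshold of 4. Fewer or more entries pass by construction where the minimum or threshold changes; for the changed totals, the shift is that of the scale. The median log2 ratio of the members was −0.01 on library totals, 0.13 with TMM, −0.11 with DESeq2 size factors and −0.12 on the deposited score. TMM gave 124 higher and 106 lower, and DESeq2 size factors 107 and 125. None of the called ratios of the 102 named miRNAs reversed under the 6 scalings and pseudocounts tried. That outcome was fixed in advance, since each shift of scale was smaller than the threshold and a pseudocount only draws ratios towards 1. It therefore says nothing about stability. The call changed for 15 of the named miRNAs with let-7 left out of the totals and for 12 with miR-148a-3p left out. Near 1 the sign was not stable: with let-7 left out of the totals, log2 ratios turned positive for miR-148a-3p (0.01), miR-191-5p (0.07), miR-378a-3p (0.15) and miR-92a-3p (0.39). A pseudocount of 10 gave 90 higher and 80 lower. Depth limits the sparse miRNAs, and 1 library a group leaves variation between pull-downs unknown.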
